A study of Mus musculus with 48 samples.

Results

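Lacrimal glands of female aromatase knockout (KO) mice were compared with lacrimal glands of female wild type (WT) mice across all genes measured on 2 array types. The comparison used 12 of the 48 arrays of the series, chosen by the gland, sex and genotype in their titles: 3 Affymetrix and 3 CodeLink arrays of KO females, and 3 of each type of WT females. KO females were homozygous for the aromatase knockout, and WT females were controls of matched age. The labels used here name no strain, no age and no treatment, and no allele that both genotypes share. Each array held RNA of 1 pool of glands from 5 to 8 mice, so the spread between arrays is the spread between pools, and differences between single mice are not seen. Lacrimal arrays of KO and WT males and meibomian arrays of KO and WT females, 12 arrays each, were used only to ask whether the effect differed by sex or gland.

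Aromatase is the enzyme that turns androgens into estrogens, so animals without it cannot make that conversion. Acinar cells of the lacrimal gland release the water and protective proteins of tears, and the gland is a classic example of a gland that differs between the sexes. Sex steroids act in it through nuclear receptors that switch genes on or off.

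Median signals of the Affymetrix arrays, before scaling, were 12.2 to 13.7 in KO females and 15.6 to 19.7 in WT females, without overlap, and their part in the results was not tested. Every array was therefore scaled to one median, and all signals below are scaled intensities. Log2 differences (KO minus WT) were taken after adding 2.77 to each signal, which understates the change of dim genes, and are given ± SE with limma's adjusted p. Correlations between pools of one group were 0.957 to 0.975 across genes. Xist, made from the inactive X chromosome, had 336, 407 and 306 in KO females and 615, 590.2 and 403 in WT females, and Eif2s3y, a Y-linked gene, had at most 2.30 in the 6 female pools, against 111 to 198 in the 6 male pools. The pools therefore fit the sex on their labels. The targeted aromatase gene was not analysed here. Acinar products marked the tissue: Car6, the secreted carbonic anhydrase, had 7548, 7665 and 8312 in KO females and 5672, 6204 and 7500.0 in WT females, and none of the 12 skeletal muscle markers on the array was bright enough to be tested.

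Some pools stood apart by genes typical of salivary glands, which lie near the lacrimal gland in the mouse. The summed signal of 8 salivary markers was 23157, 10584 and 50.7 in KO pools 1 to 3, against 18481, 2946 and 2300 in WT pools 1 to 3. Smr3a, a submandibular secretory protein, had 4009.6, 971 and 0.541 in KO females and 3636, 62.8 and 66.8 in WT females. KO pools 1 and 2 and WT pool 1 were high and KO pool 3 was near the floor, so the groups overlapped widely. No salivary marker passed the test between genotypes.

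Of 7436 genes tested, 216 (2.9%) passed an adjusted p of 5%, 107 (1.44%) higher in KO females and 109 (1.47%) lower. The 135 that differed by at least 1 log2 unit, or 2-fold, were 79 higher and 56 lower. The largest increases were far larger than the largest decreases, with log2 differences up to 6.13 and down to -2.60. The median of all genes was -0.08, and 40.3% of genes were above 0. Quantile normalization instead of scaling gave 352 calls, 217 higher and 135 lower, and moved the median to -0.01. Leaving out 1 pool at a time gave 103 to 176 calls: 121 without KO pool 2, 103 without KO pool 3, 135 without WT pool 1 and 136 without WT pool 2. Without KO pool 1 and WT pool 1 together, the pools highest in salivary markers in each genotype, 123 genes passed, 85 higher and 38 lower. All 3 KO pools lay above all 3 WT pools in 618 genes (8.31%) and below them in 1246 (16.8%).

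**Figure D1:**
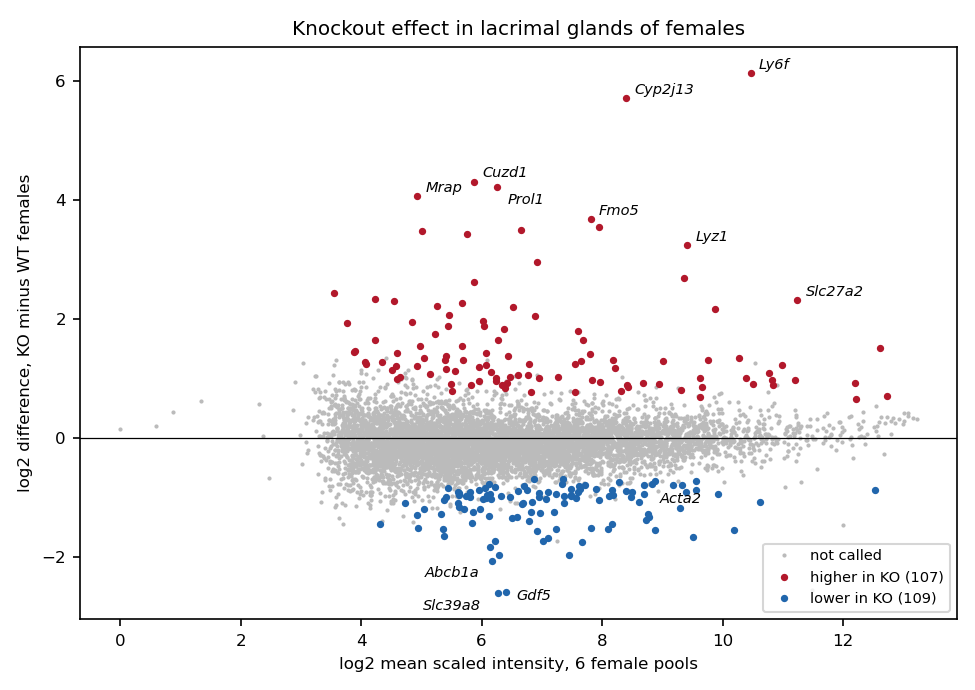
Log2 difference between KO and WT females (vertical axis) against the log2 mean scaled intensity of the 6 female pools (horizontal axis), one point per gene tested. Red points are the 107 genes higher in KO females and blue points the 109 lower ones at an adjusted p of 5%, and the increases reach much farther from 0 than the decreases.

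Several of the largest increases belonged to genes that were dim in WT females and brighter in males of both genotypes. WT female levels enter both the increase and this gap to males. Genes were also chosen for testing by their mean brightness over lacrimal pools of both sexes. A gene dim in WT females was therefore more likely to be tested where its KO female and male pools were bright. The part of this choice in the pattern was not tested. Ly6f, which encodes a small surface protein of the Ly6 family on chromosome 15, had 1875, 2955 and 3537 in KO females, against 36.0, 55.8 and 22.5 in WT females. Its log2 difference was 6.13 ± 0.34 (adjusted p = 2.56e-10). The genotypes were far apart, and the KO pools lay among or above the male pools, which had 728, 1804 and 1604 in KO males and 1172, 2336 and 2077 in WT males. Cyp2j13, a cytochrome P450 of a family that oxidises fatty acids, on chromosome 4, had 349.6, 735 and 920.2 in KO females and 9.05, 7.98 and 10.5 in WT females. It rose by 5.71 ± 0.29 (adjusted p = 7.49e-11). All KO pools were below the lowest male pool, at 1033, and the WT female pools were near the floor. CodeLink gave the same direction for both, with log2 differences of 5.59 ± 0.51 (adjusted p = 0.000212) for Ly6f and 6.43 ± 0.28 (adjusted p = 2.73e-07) for Cyp2j13.

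RefSeq lists a promoter, 250 bases before to 50 after the start, for 80 of the 107 genes higher in KO females and 88 of the 109 lower ones. The 2 largest increases and the 2 largest decreases that passed on both array types and have an entry are shown, so that the starts of the genes that moved most can be read beside their values. Capitals mark GGTCA (5 bases of the estrogen receptor's half-site), TGTTCT (the half-site shared by the androgen and glucocorticoid receptors) and TTCNNNGAA (the core site of STAT proteins), searched on both strands. The first entry was taken where the table has several. In build GRCm38.p6 they lie at chr15:75268171-75268470 (plus strand) for Ly6f, chr4:96077491-96077790 (minus strand) for Cyp2j13, chr5:8566841-8567140 (plus strand) for Abcb1a and chr11:70053874-70054173 (plus strand) for Asgr1.
Ly6f: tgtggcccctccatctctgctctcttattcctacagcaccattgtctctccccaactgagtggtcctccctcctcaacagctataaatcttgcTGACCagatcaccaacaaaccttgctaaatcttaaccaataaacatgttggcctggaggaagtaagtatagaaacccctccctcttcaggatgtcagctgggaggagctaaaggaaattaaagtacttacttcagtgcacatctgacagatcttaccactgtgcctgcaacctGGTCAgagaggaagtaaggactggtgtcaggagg
Cyp2j13: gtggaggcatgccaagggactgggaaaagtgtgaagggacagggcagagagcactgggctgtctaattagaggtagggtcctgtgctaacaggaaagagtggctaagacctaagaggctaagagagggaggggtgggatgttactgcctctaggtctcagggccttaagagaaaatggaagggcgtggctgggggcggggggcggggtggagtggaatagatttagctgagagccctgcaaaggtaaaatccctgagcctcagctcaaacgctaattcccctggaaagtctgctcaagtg
Abcb1a: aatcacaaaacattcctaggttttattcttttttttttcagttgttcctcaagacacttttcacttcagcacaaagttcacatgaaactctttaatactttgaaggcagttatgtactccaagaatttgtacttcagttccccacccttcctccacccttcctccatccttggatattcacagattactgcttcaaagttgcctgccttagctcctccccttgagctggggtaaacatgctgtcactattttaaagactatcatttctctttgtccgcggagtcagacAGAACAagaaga
Asgr1: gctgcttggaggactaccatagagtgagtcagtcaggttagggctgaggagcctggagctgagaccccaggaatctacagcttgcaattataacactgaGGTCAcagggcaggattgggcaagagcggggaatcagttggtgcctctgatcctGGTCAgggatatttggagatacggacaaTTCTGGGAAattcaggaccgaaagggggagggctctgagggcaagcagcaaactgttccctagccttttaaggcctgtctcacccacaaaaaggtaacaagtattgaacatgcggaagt
The Ly6f window holds GGTCA in either orientation 2 times, that of Abcb1a holds TGTTCT 1 time and that of Asgr1 holds GGTCA 2 times and TTCNNNGAA 1 time, while none of the 3 was found in the Cyp2j13 window. GGTCA was present in 24 of the 80 promoters (30.0%) of genes higher in KO females, 31 of 88 (35.2%) of those lower, 37.1% of promoters of all genes tested and 40.2% of all 27018 promoters of the table. TGTTCT was present in 13 of 80 (16.2%), 10 of 88 (11.4%), 12.3% and 19.0% of the same sets, and TTCNNNGAA in 9 of 80 (11.2%), 7 of 88 (7.95%), 6.68% and 8.47%. These are matches of letters and not sites of binding.

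Other genes had dim WT female pools as well. Mrap, the accessory protein that carries the ACTH receptor to the cell surface, had 58.4, 57.8 and 63.0 in KO females, and 0.335, 1.81 and 0.952 in WT females, under the added constant. Its log2 difference was 4.06 ± 0.29 (adjusted p = 1.12e-08), and the KO pools were close to each other and just below the male pools, of which the lowest had 67.7. A second probe set of Mrap had -0.23. Fmo5, a flavin monooxygenase, had 232, 531 and 496 in KO females and 36.2, 27.4 and 22.7 in WT females. It rose by 3.68 ± 0.29 (adjusted p = 7.29e-08), and 2 of the 3 KO pools were within the range of WT males, which had 730.4, 512 and 463. Rimklb, a ligase that joins glutamate to N-acetylaspartate, rose by 3.48 ± 0.33 (adjusted p = 8.64e-07) on 1 probe set, while its 3 other probe sets had -0.08 to 0.16. Pgf, placental growth factor, rose by 2.62 ± 0.32 (adjusted p = 3.2e-05), Bok, a pro-death protein of the BCL2 family, by 2.22 ± 0.25 (adjusted p = 1.39e-05), and Dnase1l2, a DNase of epithelia, by 2.30 ± 0.35 (adjusted p = 0.000394). Cdc45, part of the helicase that opens DNA for copying, had 34.1, 31.0 and 32.3 in KO females and 0.838, 6.35 and 7.62 in WT females, a rise of 2.33 ± 0.34 (adjusted p = 0.000316). It was the 1 member called among 16 tested cell cycle genes, against 1.44% of all genes higher, and the list median was -0.01. On CodeLink the differences were smaller for Mrap, 1.66 (adjusted p = 0.00797), Fmo5, 1.74 (adjusted p = 0.00298), and Pgf, 1.73 (adjusted p = 0.00457), and Dnase1l2 passed as well. Bok did not pass there, with 1.08 (adjusted p = 0.134), and Cdc45 did, with 2.07 (adjusted p = 0.000647).

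Cuzd1, Ly6g2, Slc12a1 and Wwox rose in KO females, and in each of them every KO female pool was above every male pool. Some genes that fell, among them Asgr1 and Akr1c18, also had KO female pools above all male pools. Cuzd1, a membrane protein known from the zymogen granules of pancreas, had 144, 112 and 85.9 in KO females and 0.502, 8.79 and 2.33 in WT females. It rose by 4.31 ± 0.47 (adjusted p = 7.18e-06), and male pools had 2.22 to 49.6, below every KO female pool. Ly6g2, a second Ly6 family gene of chromosome 15, had 156, 175 and 231 in KO females and 14.8, 14.0 and 13.0 in WT females, a rise of 3.49 ± 0.51 (adjusted p = 0.000316). In males the same gene was lower in KO (3.86, 30.5 and 6.43) than in WT (15.9, 99.7 and 78.2), by a log2 difference of -2.09 ± 0.51 (adjusted p = 0.0462). Slc12a1, the sodium-potassium-chloride cotransporter best known from kidney, rose by 3.43 ± 0.37 (adjusted p = 5.33e-06) with 0.58 on a second probe set, and Wwox, an oxidoreductase with WW domains, by 2.07 ± 0.22 (adjusted p = 4.89e-06). Wwox had 77.3, 74.3 and 65.9 in KO females, 16.2, 15.2 and 14.1 in WT females, 23.5 to 31.1 in KO males and 40.4 to 55.2 in WT males, so the 4 groups did not overlap. CodeLink gave 2.91 (adjusted p = 0.000283) for Cuzd1 and 1.90 (adjusted p = 0.000291) for Wwox.

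**Figure D2:**
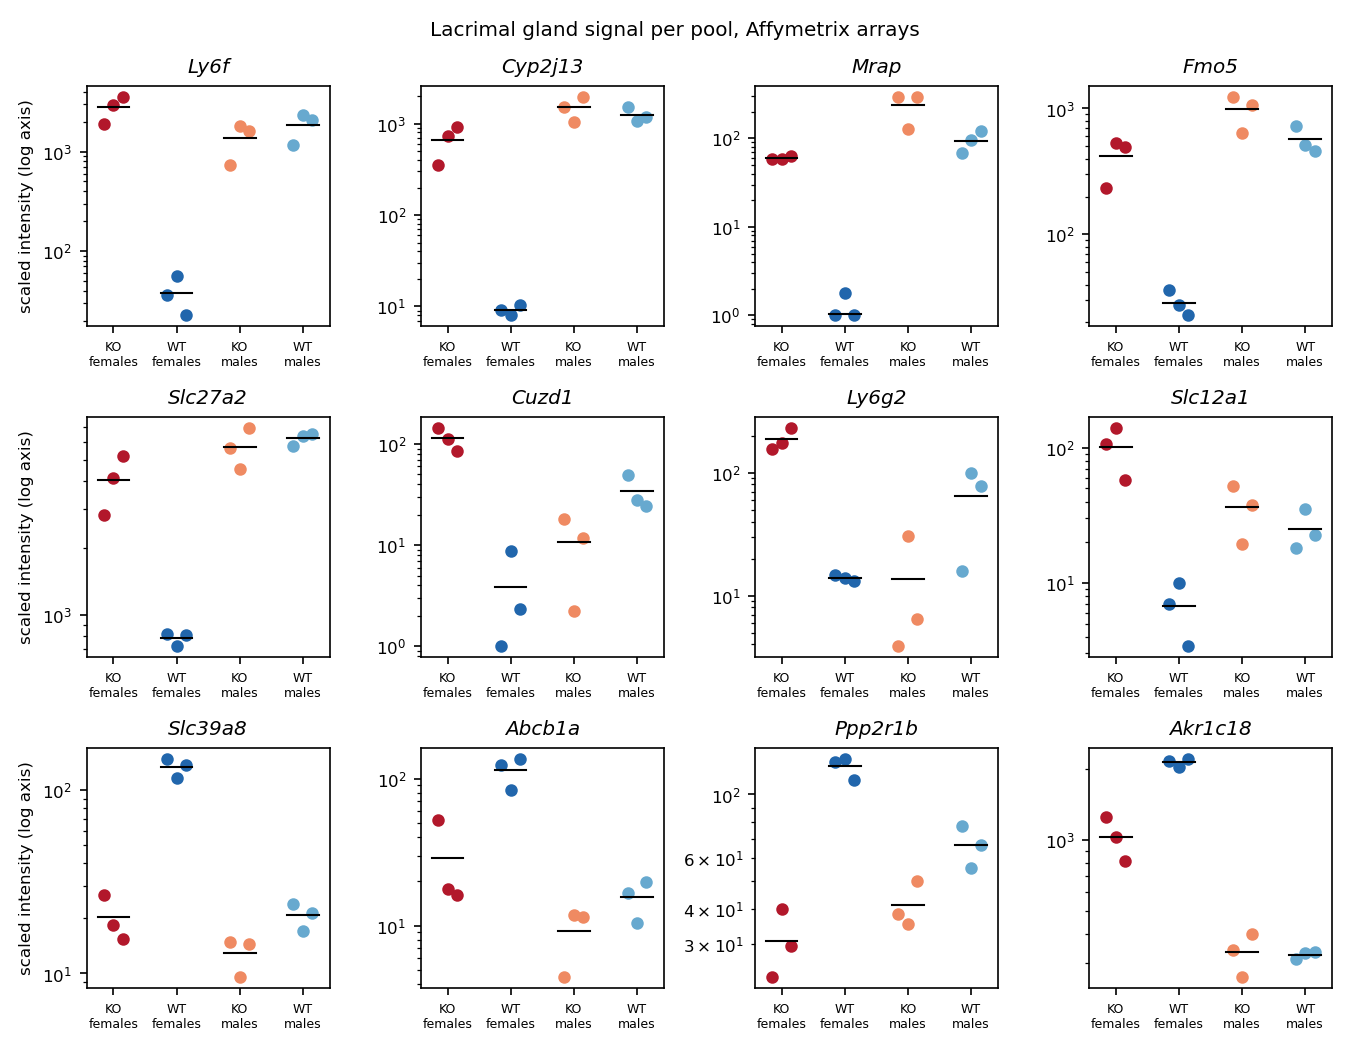
Scaled intensity of 12 genes in each lacrimal pool on Affymetrix arrays (log axes, values under 1 drawn at 1), in KO females, WT females, KO males and WT males, with 3 pools a group and lines at the means. Cyp2j13, Mrap, Fmo5 and Slc27a2 of KO females sit near or below both male groups, Ly6f among or above them, Cuzd1, Ly6g2 and Slc12a1 above them, and Slc39a8, Abcb1a, Ppp2r1b and Akr1c18 below WT females.

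Enzymes that build sugar chains on lipids and proteins were among the increases. Of 22 glycosyltransferases and sialyltransferases tested, 4 rose, against 1.44% of all genes, and none fell, with a list median of 0.20 against -0.08 for all genes. B4galt6, which makes lactosylceramide, had 352, 518 and 504 in KO females and 34.0, 51.1 and 27.4 in WT females, a rise of 3.54 ± 0.26 (adjusted p = 1.34e-08), and all 4 of its probe sets gave 2.41 to 3.62. St6galnac1, which adds sialic acid to mucin-type chains, had 45.3, 349 and 276 in KO females and 19.0, 14.3 and 24.0 in WT females. It rose by 2.96 ± 0.55 (adjusted p = 0.00321) although KO pool 1 was close to the WT pools. Fut8, the core fucosyltransferase, rose by 1.88 ± 0.36 (adjusted p = 0.0036), and St3gal5, which makes the ganglioside GM3 from lactosylceramide, by 1.28 ± 0.26 (adjusted p = 0.00784). The St3gal5 call was lost without KO pool 2 (adjusted p = 0.0641) and without WT pool 2 (adjusted p = 0.0545). On CodeLink 3 of 19 members rose and none fell: B4galt6 had 2.62 (adjusted p = 0.0115), St6galnac1 2.44 (adjusted p = 0.0172) and St3gal5 2.04 (adjusted p = 9.58e-05), while Fut8, with 1.52 (adjusted p = 0.105), did not pass.

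Lipid genes changed in parts. Of 25 fatty acid oxidation genes 3 rose, against 1.44% of all genes, and none fell, with a median of 0.05. Slc27a2, which activates very long-chain fatty acids, was bright in all groups, with 2804, 4117 and 5213 in KO females and 821, 721 and 813 in WT females. It rose by 2.32 ± 0.21 (adjusted p = 4.07e-07), and CodeLink gave 2.27 ± 0.33 (adjusted p = 0.00383). Crat, carnitine acetyltransferase, rose by 1.16 ± 0.23 (adjusted p = 0.00687), and Acaa2, a mitochondrial thiolase, by 1.03 ± 0.23 (adjusted p = 0.014), but other probe sets of these genes had -0.69 for Crat and 0.22 and 0.67 for Acaa2. CodeLink gave 1.01 (adjusted p = 0.114) for Crat and 0.21 (adjusted p = 0.646) for Acaa2. Crat did not pass without WT pool 2 (adjusted p = 0.0604), nor Acaa2 without KO pool 1 (0.0521), KO pool 3 (0.0734) or WT pool 1 (0.0568). Scd1, the desaturase that makes oleate, had 1751, 2023 and 1550.1 in KO females and 751, 607 and 730.1 in WT females, a rise of 1.34 ± 0.23 (adjusted p = 0.00164). It was the 1 member higher of 17 fatty acid synthesis genes, of which Acsl4, an acyl-CoA synthetase that prefers arachidonate, was the 1 lower (-0.98 ± 0.22). The shares of all genes were 1.44% higher and 1.47% lower. The Acsl4 call was lost without KO pool 2 (adjusted p = 0.0627), KO pool 3 (0.108) or WT pool 2 (0.0863). Its other probe sets had -0.37 and 0.11, and the mean of all of them was -0.41 (adjusted p = 0.546).

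In cholesterol synthesis 1 of 18 genes rose and 1 fell, against 1.44% and 1.47% of all genes. Of the 18 genes 15 had a difference below 0 and 3 above it, against 40.3% of all genes above 0, with a median of -0.29. Pmvk, phosphomevalonate kinase, had 67.8, 121 and 70.6 in KO females and 15.8, 19.9 and 11.0 in WT females, and rose by 2.26 ± 0.30 (adjusted p = 9.35e-05), with 2.60 (adjusted p = 0.00437) on CodeLink. Fdft1, squalene synthase, had 86.6, 38.8 and 59.2 in KO females and 211, 192 and 139.6 in WT females, and fell by 1.56 on the log2 scale (SE 0.32, adjusted p = 0.00739). The 2 enzymes of the same route moved in opposite directions. Without KO pool 2 the Fdft1 call was lost (adjusted p = 0.0627), and its other probe sets had -1.35, -0.09 and 0.54.

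Of 24 secreted proteins of tears and lacrimal tissue tested 7 rose, against 1.44% of all genes, and none fell. Of the 24, 20 were above 0, against 40.3% of all genes, and the median was 0.45, while on CodeLink none of 18 passed and the median was 0.07. Prol1, a proline-rich protein of lacrimal tissue, had 61.4, 87.2 and 287 in KO females and 24.0, 0.181 and 0.529 in WT females, a rise of 4.22 ± 0.61 (adjusted p = 0.000316). All KO pools were below the lowest male pool, at 324, and WT pool 1 was the only WT female pool clearly above the floor. Mup5, a lipocalin of the major urinary protein family, had 1325, 1937 and 1332 in KO females and 451, 248 and 327 in WT females, a rise of 2.17 ± 0.36 (adjusted p = 0.00103). Members of the Mup, Ly6 and kallikrein families are alike in sequence, so their probe sets may read relatives too. Lpo, lactoperoxidase, rose by 0.92 ± 0.19 (adjusted p = 0.00687), Wfdc12, a small protease inhibitor, by 1.22 ± 0.28 (adjusted p = 0.0184), and Serpina3n, a serine protease inhibitor, by 1.39 ± 0.21 (adjusted p = 0.000409). Clu, clusterin, also passed (0.90 ± 0.22). CodeLink gave 1.05 (adjusted p = 0.0816) for Lpo, 1.16 (adjusted p = 0.265) for Wfdc12, 1.21 (adjusted p = 0.214) for Serpina3n and 0.42 (adjusted p = 0.795) for Clu. Lyz1, a lysozyme, had 1008, 1273 and 1417 in KO females and 137, 142 and 105 in WT females, a rise of 3.24 ± 0.22 (adjusted p = 5.44e-09), but its other probe sets gave 0.84 and 0.29 and CodeLink gave -0.06 ± 0.23 (adjusted p = 0.957), and Lyz2 is a near-identical copy, so its change is uncertain. Lpo was not called without KO pool 3 (adjusted p = 0.0511), nor was Wfdc12 without KO pool 2 (0.0977), KO pool 3 (0.0948), WT pool 2 (0.144) or WT pool 3 (0.0713).

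Other well-known tear proteins did not pass, among them Pip (0.33 ± 0.18), Car6 (0.29 ± 0.18), Scgb1b2 (0.33 ± 0.18) and lactoferrin, Ltf (0.21 ± 0.21). Scgb1b27, a secretoglobin shared with salivary glands, had 3334, 1532 and 726 in KO females and 2677, 256 and 391 in WT females and was highest in pool 1 of both genotypes, as the salivary markers were. The summed acinar markers were 30783 to 36189 in KO females and 24310 to 25611 in WT females, without overlap. Of 9 members 3 were called higher, against 1.44% of all genes. These were Prol1, Lpo and Wfdc12, already counted among the secreted proteins. On CodeLink none of 6 acinar markers passed, with a median of 0.10. B and plasma cell markers summed to 10177 to 12322 in KO females and 6617 to 9205 in WT females, again without overlap. Among all single genes tested, 8.31% had every KO pool above every WT pool. Of their 6 members 1 was called higher, against 1.44% of all genes. It was Jchain, the chain that joins secreted IgA, which rose by 0.98 ± 0.21 (adjusted p = 0.00917). The call was lost without KO pool 2 (adjusted p = 0.0530), KO pool 3 (0.0725) or WT pool 2 (0.0863), and CodeLink gave 0.55 (adjusted p = 0.429). In pooled glands more cells of a type and more RNA per cell cannot be told apart, and the part of cell makeup and of salivary tissue in these results was not tested. Without KO pool 1 and WT pool 1 the median of the secreted proteins was 0.57.

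**Figure D3:**
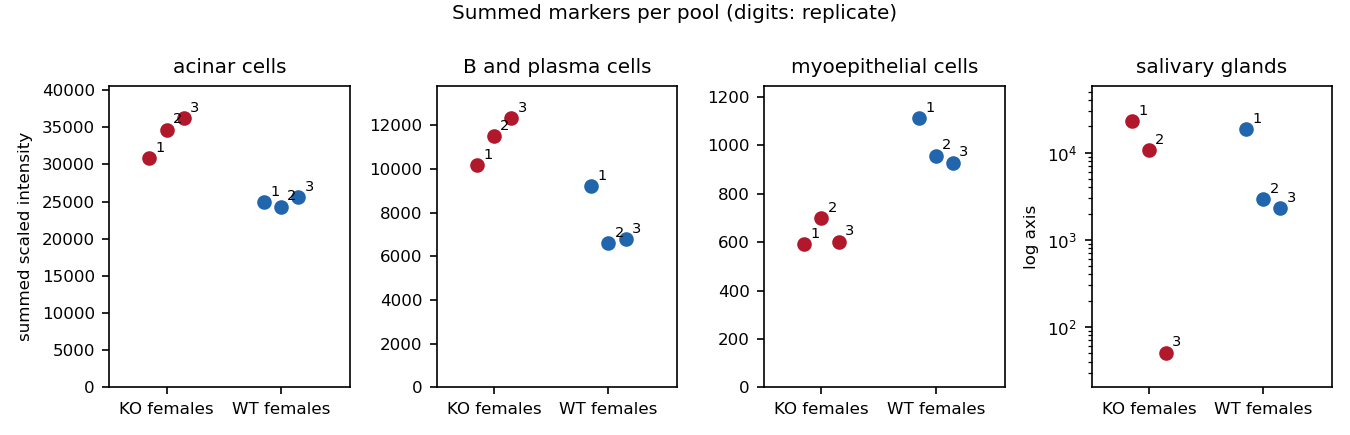
Summed scaled intensity of marker genes in each of 3 KO and 3 WT female pools for acinar cells, B and plasma cells, myoepithelial cells and salivary glands (log axis for the last). KO pools are above WT pools for acinar and for B and plasma cell markers and below them for myoepithelial markers, while salivary markers vary within both groups.

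Of 16 cytokines, chemokines and death receptors 3 rose, against 1.44% of all genes, and none fell, with a median of 0.16 against -0.08 for all genes. Fas, a death receptor, had 20.1, 13.0 and 32.2 in KO females and 1.34, 2.36 and 1.06 in WT females, a rise of 2.43 ± 0.36 (adjusted p = 0.000316). Il18, an interleukin of the IL-1 family, rose by 1.21 ± 0.27 and Ccl8, a chemokine for monocytes, by 1.13 ± 0.29. Il18 was not called without KO pool 2 (adjusted p = 0.0957), KO pool 3 (0.131) or WT pool 3 (0.0608), nor Ccl8 without KO pool 2 (0.0832), KO pool 3 (0.260), WT pool 1 (0.0915) or WT pool 2 (0.213). Isg20, an interferon-induced exonuclease, had 319.6, 393 and 266 in KO females and 135, 134 and 93.5 in WT females, a rise of 1.41 ± 0.22 (adjusted p = 0.000514), the 1 call among 16 interferon-stimulated genes. On CodeLink Fas passed, with 1.84 (adjusted p = 0.00639), and Il18 (0.73 (adjusted p = 0.0699)), Ccl8 (1.52 (adjusted p = 0.0621)) and Isg20 (1.19 (adjusted p = 0.0543)) did not. None of 15 macrophage markers passed, and their summed signal was 744 to 1082 in KO females and 797 to 894 in WT females.

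The decreases were smaller. Among genes with large ones, Slc39a8, Gdf5, Abcb1a and Asgr1 were brighter in WT females than in males. Others were not called different between WT males and WT females, such as Atm (-0.19, limma's adjusted p = 0.694) and Ddr1 (-0.45, adjusted p = 0.321). WT female levels enter both the decrease and this gap. Slc39a8, a zinc and manganese importer, had 26.9, 18.4 and 15.4 in KO females and 148, 117 and 137 in WT females. It fell by 2.60 on the log2 scale (SE 0.25, adjusted p = 1.45e-06), close to the level of WT males, which had 24.0, 17.1 and 21.4, and its second probe set gave -2.03. CodeLink gave only -0.37 ± 0.26 (adjusted p = 0.621) for this gene. Gdf5, a growth factor of the BMP family, had 24.9, 26.0 and 13.9 in KO females and 194, 163 and 84.1 in WT females, a log2 difference of -2.58 ± 0.43 (adjusted p = 0.00114). Abcb1a, the drug efflux pump P-glycoprotein, had 52.5, 17.8 and 16.1 in KO females and 125, 83.3 and 136 in WT females, with -2.05 ± 0.38 (adjusted p = 0.00268) and -2.93 on a second probe set. For both genes CodeLink passed as well, with -1.92 ± 0.22 (adjusted p = 0.000891) for Gdf5 and -1.99 ± 0.32 (adjusted p = 0.00634) for Abcb1a. Asgr1, the hepatic lectin that takes up desialylated glycoproteins, had 573, 404 and 167 in KO females and 985, 1217 and 1023 in WT females, with -1.65 ± 0.30 (adjusted p = 0.00279), and male pools had at most 18.9.

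Among transport genes 3 of 29 solute carriers and ABC pumps fell, Slc39a8, Abcb1a and the glutamine carrier Slc1a5 (-0.82 ± 0.22), against 1.47% of all genes, and none rose, while the list median was 0.03. The Slc1a5 call was lost without each of the 6 pools in turn, with adjusted p of 0.0561 (without WT pool 3) to 0.193 (without KO pool 1). Of 21 growth factors and receptors Pgf rose, and Gdf5 and the collagen receptor Ddr1 fell (-1.43 ± 0.28), against 1.44% and 1.47% of all genes. The list median was -0.27. The other 7 probe sets of Ddr1 had -0.76 to 0.11, so its size depends on the probe set, and CodeLink gave -0.32 (adjusted p = 0.535). Of 40 xenobiotic and redox enzymes 4 rose and 5 fell, against 1.44% and 1.47% of all genes. Besides Cyp2j13 and Fmo5, Sult1a1, a phenol sulfotransferase, rose by 1.38 ± 0.23 (adjusted p = 0.00115). Among those that fell, Dcxr, L-xylulose reductase, had 148, 139 and 131 in KO females and 449, 338 and 442 in WT females, with -1.53 ± 0.21 (adjusted p = 0.000152). Cbr2, a carbonyl reductase, had a log2 difference of -1.54 ± 0.23 (adjusted p = 0.000316), and Cdo1, which oxidises cysteine on the way to taurine, had -1.54 ± 0.24 (adjusted p = 0.000409). For Dcxr the KO pools lay at or just above the top of the male pools, which had 83.8 to 135.

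Other named decreases, taken by their size and not as a list, covered several functions. Trim24, a cofactor of nuclear receptors, had 64.4, 68.6 and 70.7 in KO females and 369.6, 282 and 194 in WT females, with -1.96 ± 0.24 (adjusted p = 3.2e-05). Ppp2r1b, a scaffold subunit of protein phosphatase 2A on chromosome 9, had 23.0, 39.9 and 29.6 in KO females and 130.3, 133 and 113 in WT females, with -1.96 ± 0.22 (adjusted p = 1.39e-05). Hmgn3, which binds nucleosomes, had 226, 259.9 and 214 in KO females and 609.8, 705 and 526 in WT females, with -1.38 ± 0.19 (adjusted p = 0.000127) and -1.94 ± 0.14 (adjusted p = 4.21e-05) on CodeLink. On these probe sets the pools of the genotypes were well apart in all 3 genes. A second probe set had only -0.92 for Trim24 and -1.71 for Hmgn3. Prom1, a protein of membrane protrusions, had a log2 difference of -1.82 ± 0.28 (adjusted p = 0.000415), and Khdrbs3, an RNA-binding splicing regulator, of -1.72 ± 0.27 (adjusted p = 0.0006). Plagl1, an imprinted zinc finger factor, had -1.68 ± 0.28 (adjusted p = 0.000954), but its second probe set had 0.22 and CodeLink gave no difference (0.00 as a log2 value). Atm, the kinase of DNA breaks, had -1.51 ± 0.27 (adjusted p = 0.00189), and CodeLink gave -0.93 (adjusted p = 0.0631). Cpe, a prohormone processing enzyme, had -1.73 ± 0.35 (adjusted p = 0.00687) and was not called without WT pool 1 (adjusted p = 0.0502) or on CodeLink, with -1.09 (adjusted p = 0.103). With the motor Myo5c it was 1 of 2 members lower among 17 secretory granule genes, of which Cuzd1 was the 1 higher. The shares of all genes were 1.47% lower and 1.44% higher. Myo5c (-0.94 ± 0.24) was lost without KO pools 1 and 3 and WT pools 1, 2 and 3 in turn (adjusted p of 0.0743 to 0.194).

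Jun was the 1 call, a decrease (-1.24 ± 0.26), among 14 immediate early genes, against 1.47% of all genes lower. Of the 14 genes 12 were below 0 and 2 above it, against 40.3% of all genes above 0. CodeLink gave -1.23 (adjusted p = 0.0158) for Jun. It did not pass without KO pool 2 (adjusted p = 0.05004), KO pool 3 (0.0607) or WT pool 1 (0.0741). WT pool 1 was the highest pool for Jun, at 115.5 against 66.1 and 66.95 in the other WT pools, and for Fos, at 75.6 against 11.5 and 10.1. Acta2, smooth muscle actin, had 309.6, 363 and 329 in KO females and 660.3, 549 and 505 in WT females and fell by 0.77 on the log2 scale (adjusted p = 0.0440), as the 1 call among 8 myoepithelial markers. Of these 8, 6 were below 0 and 2 above it, against 40.3% of all genes above 0, and the median was -0.70. Their sum was 591 to 699 in KO females and 928 to 1111 in WT females, without overlap. The Acta2 call was lost without each of the 6 pools in turn (adjusted p of 0.0574 without WT pool 3 to 0.212 without WT pool 1), and a second probe set had 0.34. Summed endothelial markers were 165 to 192 in KO females and 200 to 226 in WT females, with no member called. Mast cell markers, of which only 2 of 7 were tested, were 49.9 to 51.9 in KO females and 68.9 to 78.9 in WT females, with none called. Among all single genes tested, 16.8% had every KO pool below every WT pool. Levels of duct, fibroblast, adipocyte, nerve and T cell markers overlapped between the genotypes.

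**Figure D4:**
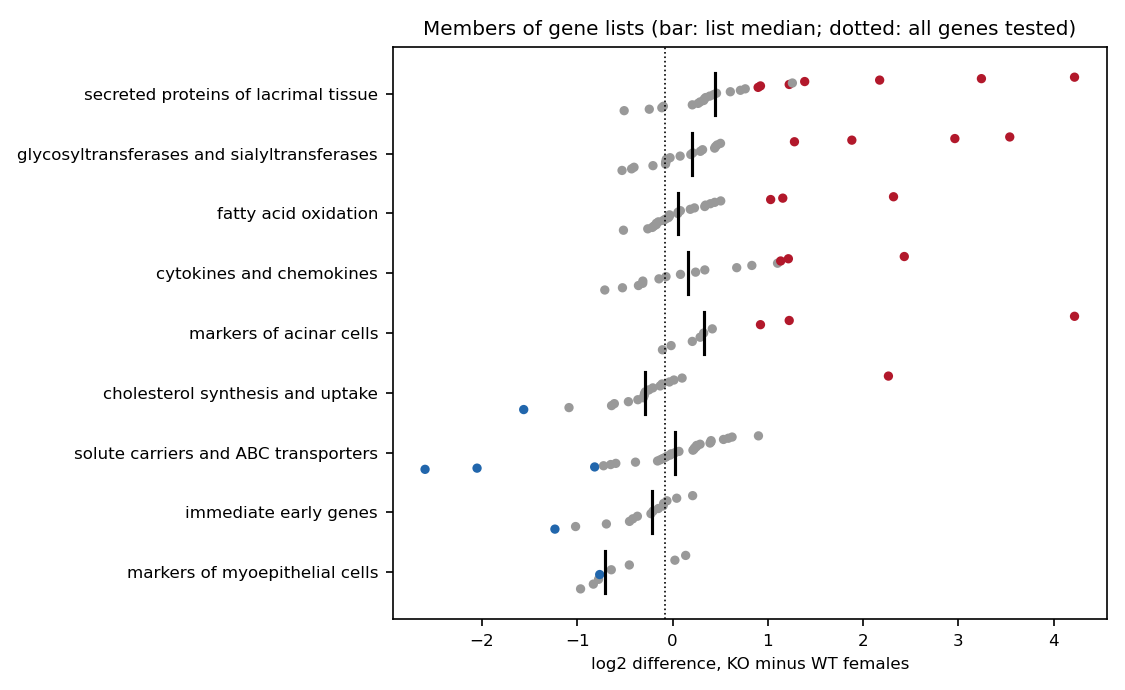
Log2 difference between KO and WT females of each tested member of 9 gene lists (points; red and blue passed an adjusted p of 5% higher and lower in KO females), with the list median (bar) and the median of all genes tested (dotted line). Secreted proteins have the highest median of the 9 lists (0.45) and myoepithelial markers the lowest (-0.70).

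Of 32 listed steroid receptors and steroid enzymes 21 had a single-gene probe set on the Affymetrix array, and 10 of these were bright enough to be tested. The list also holds other genes such as Ghr and Fkbp4. Of the 10 genes tested 1 rose and 1 fell, against 1.44% and 1.47% of all genes. Hsd17b11, a dehydrogenase of lipid droplets that can oxidise androstane steroids, had 887, 1129 and 1408 in KO females and 218, 177 and 130.2 in WT females. It rose by 2.69 ± 0.23 (adjusted p = 1.45e-07), and its second probe set gave 1.42. Male pools had 1161 to 1842, so 1 KO female pool lay within the male range and the others just below it. Akr1c18, which inactivates progesterone, had 1244, 1025 and 816 in KO females and 2167, 2029.8 and 2201 in WT females and fell by 1.07 on the log2 scale (SE 0.20, adjusted p = 0.00268). CodeLink gave -1.54 ± 0.23 (adjusted p = 0.00437), and male pools, at 261 to 400, were lower still. The glucocorticoid receptor Nr3c1 (-0.06 ± 0.21), the growth hormone receptor Ghr (0.17 ± 0.22), Hsd11b1 (0.44 ± 0.23), Hsd17b10 (0.42 ± 0.19), Hsd3b7 (0.16 ± 0.31), Sult1e1 (0.05 ± 0.30), Fkbp4 (-0.34 ± 0.24) and Srd5a3 (-0.59 ± 0.23) did not pass. The other 2 probe sets of Nr3c1 had -1.12 (unadjusted p = 0.000787 by limma) and 1.13 (unadjusted p = 0.0149 by limma), large and opposite, so its 1 value near 0 does not settle its level. None of 12 genes known to be induced by estrogen in uterus or mammary gland passed, with differences of -0.55 to 0.24. Of 12 genes known to respond to androgen in kidney or in submandibular gland, the kallikrein Klk1b11 rose (1.06 ± 0.25) and the glucuronidase Gusb fell (-0.99 ± 0.23). The shares of all genes were 1.44% higher and 1.47% lower, and neither call was robust to the pools. Klk1b11 was lost without KO pools 2 and 3 and WT pools 1 and 2 in turn (adjusted p of 0.0721 to 0.136), and Gusb without KO pools 1 and 3 and WT pools 1 and 3 in turn (0.0556 to 0.117).

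None of 30 chaperones and unfolded protein response genes passed (median 0.01), nor any of 34 genes of oxidative phosphorylation (median 0.01). The next lists had 1 call each, against 1.44% of all genes higher and 1.47% lower. In fluid secretion 1 of 19 genes passed, the water channel Aqp8 (0.91 ± 0.20), which was lost without KO pools 2 and 3 and WT pools 1 and 3 in turn (adjusted p of 0.0575 to 0.104). In antigen presentation 1 of 15 passed, B2m (1.01 ± 0.23), which was lost without KO pools 2 and 3 and WT pools 2 and 3 in turn (0.0739 to 0.120). Of 13 heat shock genes 3 were above 0, against 40.3% of all genes, with a median of -0.24. Among them Hspa1b fell (-1.74 ± 0.42, 3 probe sets with -1.87 to -1.66), but not without KO pool 1 (adjusted p = 0.0940), KO pool 3 (0.0734), WT pool 2 (0.148) or WT pool 3 (0.0855).

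The CodeLink arrays carried the same RNA, so they test the measurement and not the mice again. There 168 of 6561 genes (2.56%) passed, 90 (1.37%) higher and 78 (1.19%) lower, with 75 to 204 when 1 pool was left out (75 without KO pool 3, and 108, 111 and 96 without WT pools 1, 2 and 3). Of the 216 Affymetrix calls 145 were tested on CodeLink, 138 had the same sign and 58 passed there too. Conversely 106 of the 168 CodeLink calls were tested on Affymetrix, and 96 had the same sign. On CodeLink Ly6f had 98.4, 157 and 144 in KO females and 2.36, 3.74 and 1.39 in WT females, in units of that array type, and Cyp2j13 had 32.3, 49.8 and 84.9 in KO females and 0.268, 0.294 and 0.123 in WT females. All KO pools were above all WT pools in both. Across genes, deviations of a female pool from its group mean correlated between the array types by 0.05 (KO pool 2) to 0.39 (KO pool 3), with 0.08 for WT pool 2. KO pool 2 on Affymetrix was closest to KO pool 1 on CodeLink, and every other female pool to its own number. Pools of KO females were not alike in the size of the changes. KO pool 1, which had the highest salivary signal, was the lowest of the 3 in 76 of the 107 genes higher in KO females on Affymetrix, and in 3725 of all 7436 genes. It was also the highest in 52 of the 109 genes lower in KO females, and in 1727 of all 7436 genes. On CodeLink it was the lowest in 37 of 77 of the higher genes and in 1334 of 4603 genes, and the highest in 31 of 68 of the lower genes and in 1878 of 4603 genes, and the part of salivary tissue in this order was not tested.

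Most of the calls were not called in males, but the shared part was above the share of all genes called in males. A missing call in males is not by itself a difference between the sexes, which was tested separately. Of the 216 genes called in females 16 (7.41%) were among the 96 (1.29% of those tested) called in males, which is 16.7% of the male calls, 14 of them in the same direction. In males 0.82% of genes were called higher and 0.471% lower. The 8 higher in KO of both sexes included Il18, Ccl8, Isg20, Serpina3n, Wfdc12 and Mrap, and the 6 lower in both included Plagl1, Asgr1 and Atm. The difference of the effects was itself called in 99 genes (1.33%), 55 (0.74%) higher and 44 (0.592%) lower in females, and 62 of these were among the 216, 43 higher and 19 lower in KO females. The female values enter both calls, so the overlap of 62 is not independent support. For Ly6f the female effect exceeded the male effect by 6.60 ± 0.48 (adjusted p = 3.41e-08), for Cyp2j13 by 5.48 ± 0.41 (adjusted p = 3.41e-08) and for Cuzd1 by 5.91 ± 0.66 (adjusted p = 1.67e-05). Leaving out 1 array gave 66 to 160 such genes, with 160 without KO male pool 2. In the other direction, Nmu, the peptide neuromedin U, differed by -7.17 ± 0.53 (adjusted p = 3.41e-08), and Ddc, which decarboxylates L-DOPA, by -7.78 ± 0.58 (adjusted p = 3.41e-08). Both were near the floor in all female pools, at most 5.27, and rose in KO males to 596 and above, against at most 14.3 in WT males. Levels in WT females enter both the knockout effect and the sex difference of WT mice, so the values are given side by side only: Ly6f differed by 5.53 ± 0.34 (adjusted p = 5.05e-10) between WT males and WT females, Slc27a2 by 2.98 ± 0.21 (adjusted p = 4.33e-09), Slc39a8 by -2.54 ± 0.25 (adjusted p = 9.22e-07) and Asgr1 by -5.82 ± 0.30 (adjusted p = 5.03e-11).

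**Figure D5:**
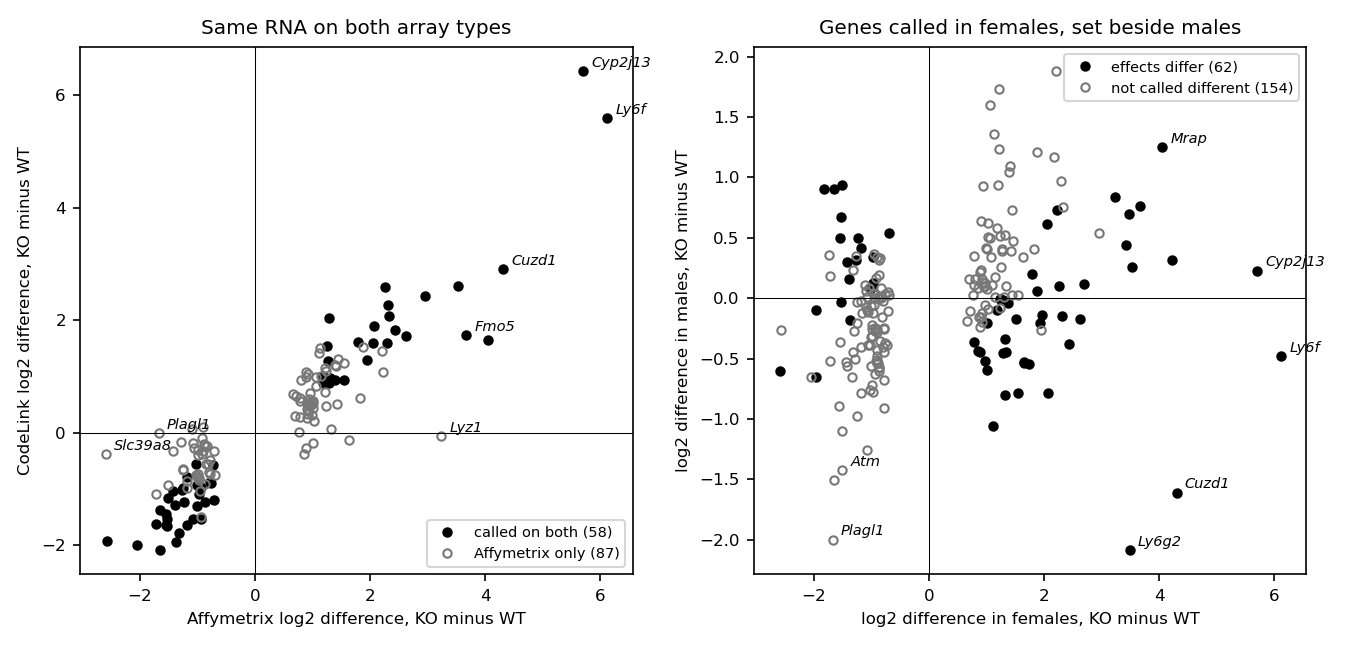
Left, log2 difference between KO and WT females on CodeLink against that on Affymetrix for the 145 called genes tested on both, of which 58 (filled) passed on both. Right, log2 difference between KO and WT males against that of females for all 216 genes called in females, with the 62 whose effects differed between the sexes filled, and many male values lie near 0.

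In meibomian glands, the lipid glands of the eyelid, the same comparison of females called 2 of 7436 genes (0.0269%), both lower in KO, and one of them was Akr1c18, with a log2 difference of -1.55 ± 0.18 (adjusted p = 0.00621) there. The difference of the effects between the glands was called in 282 genes (3.79%), 176 (2.37%) higher and 106 (1.43%) lower in lacrimal glands. Of the 216 female lacrimal calls 199 were bright enough for the fit of both glands, and 118 of these were among the 282. The rest, with Cyp2j13, Cuzd1, Gdf5 and Fas, were not compared between the glands. That fit chose its own probe sets, and for Acaa2 it gave a lacrimal difference of 0.22 instead of 1.03. The same female lacrimal values enter both calls, so this overlap is not independent support. Ly6f had -0.51 ± 0.32 (adjusted p = 0.442) in meibomian glands, a difference of effects of 6.66 ± 0.45 (adjusted p = 4.86e-06). For Fmo5 the meibomian value was -0.45 ± 0.27 (adjusted p = 0.428), for Hsd17b11 -0.22 ± 0.18 (adjusted p = 0.56) and for Slc39a8 -0.09 ± 0.18 (adjusted p = 0.827). Leaving out 1 array at a time gave 87 to 416 genes for the difference between the glands: 169 and 158 without lacrimal KO pools 2 and 3, 100 and 87 without meibomian KO pools 1 and 3, and 120, 171 and 131 without meibomian WT pools 1, 2 and 3.

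The aromatase gene lies on chromosome 9, where neighbouring genes of the founder cells can be carried along with a targeted allele. Of the 200 tested genes nearest to it in RefSeq order, 100 on each side, 17 (8.5%) were called in females and 6 (3.0%) in males, against 8 of 211 (3.79%) and 1 (0.474%) in the rest of the chromosome and 191 of 7025 (2.72%) and 89 (1.27%) elsewhere. Ppp2r1b, Atm, Il18 and Myo5c are among the 17, and the part of the founder genome in their differences was not tested. Others of the 17, named after their values were seen, were Calml4, a calmodulin-like protein (1.94 ± 0.43), Nrg4, a growth factor of the neuregulin family (1.79 ± 0.25), and Cryab, a small heat shock protein (-1.32 ± 0.25).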

How the data were processed

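RNA of pooled lacrimal glands was hybridised to Affymetrix 430A and CodeLink UniSet Mouse 20K I arrays, per the labels' protocols. The deposited Affymetrix values are intensity signals on a linear scale, not brought to one level between arrays. GCOS is named in the submitters' processing notes, and its settings are not given in the sources used here. The deposited CodeLink intensity values are, as the file headers and values show, spot means minus the median background, divided by one factor per array.

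Each array was scaled to a common median, a pseudocount (the 20th percentile, 2.77 on Affymetrix and 0.376 on CodeLink) was added and log2 was taken. Each gene was read from its probe set with the highest mean, the brightest 60% of 12394 Affymetrix and 10935 CodeLink genes were tested, and limma 3.58.1 in R 4.3.3 (lmFit, eBayes with trend) was fitted to the 4 lacrimal groups with Benjamini-Hochberg adjustment. Of 22690 Affymetrix features 20393 had 1 gene name, 691 several and 1606 none, and of 17440 CodeLink features 11377 had 1. Gland differences came from a fit of the 12 female Affymetrix arrays with a pseudocount of 3.79. Tables and figures were made with Python 3.11.15, pandas 2.3.3 and matplotlib 3.10.9. On simulated data for females 54.3% of genes changed by 1 log2 unit and 93.7% of those changed by 2 were found, with 3.69% false calls; for females minus males these were 18.3%, 78.7% and 4.28%. The number of arrays limits the precision.

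Genes were named by these rules: the 15 largest called changes in each direction with the same sign on CodeLink, the 5 largest without a tested CodeLink probe, up to 6 called members per list, the 6 largest differences by sex and gland in each direction, the steroid list, the sex markers, and the 10 best calls on both array types. Car6, Pip, Ltf, Scgb1b2, Scgb1b27, Smr3a and Fos were named outside these, after their values were seen. Members and lists were chosen with earlier results of these data known. Alternatives covered normalization, pseudocount, filter, samples fitted, probe sets, the replicate block, each pool left out, the array type and, chosen after seeing the data, the deposited CodeLink table, other probe sets and the salivary-rich pools. Labels do not say that pools with the same number share mice or a day.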

Additional observations from a re-analysis of the deposited data

Results flagged for a closer look

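The knockout effect in lacrimal glands of females was tested against that in males, and the difference of the effects, female minus male on the log2 scale, passed limma's adjusted p of 5% for these named genes. The effect in females was the more positive for Ly6f (6.60), Cuzd1 (5.91), Ly6g2 (5.57), Cyp2j13 (5.48), Prol1 (3.90), B4galt1 (3.61), B4galt6 (3.28), Slc12a1 (2.99), Fmo5 (2.92), Wwox (2.86) and Fas (2.81). It was also the more positive for Mrap (2.80), Pgf (2.80), Rimklb (2.78), Hsd17b11 (2.58), Slc27a2 (2.47), Lyz1 (2.40), Pmvk (2.16), Scd1 (1.79), Bok (1.49) and Sult1a1 (1.42). Of these, B4galt1 did not pass in females and was lower in KO than in WT males.

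The effect in females was the more negative for Ddc (-7.78), Nmu (-7.17), Smr2 (-4.90), Klk1b21 (-4.61), Klk1b24 (-4.24), Tspan6 (-4.03), Prom1 (-2.73), Ceacam10 (-2.54) and Tceal8 (-2.44). Smaller differences of this sign were found for Slc44a3 (-2.20), Cdo1 (-2.04), Slc39a8 (-1.999), Trim24 (-1.86), Sult1e1 (-1.81), Jun (-1.73), Dcxr (-1.50), Ppp2r1b (-1.30) and Hmgn3 (-1.20). Ddc, Nmu, Smr2, Klk1b21, Klk1b24, Tspan6 and Sult1e1 did not pass in females. Smr2 is also on the list of salivary markers. Of these 39 genes 30 were measured on CodeLink, where 29 had the same sign and 17 passed. Lyz1 had the opposite sign there (-0.88 ± 0.33), and its difference is uncertain. Among those that did not pass were Smr2 (-0.63, adjusted p = 0.54), Klk1b24 (-3.18 ± 1.84, adjusted p = 0.59), Slc39a8 (-0.10, adjusted p = 0.963), Bok (0.44, adjusted p = 0.829) and Mrap (0.85, adjusted p = 0.474).

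The knockout effect in lacrimal glands of females was also tested against that in meibomian glands of females, lacrimal minus meibomian. The lacrimal effect was the more positive for Ly6f (6.66), Fmo5 (4.14), B4galt6 (3.37), St6galnac1 (2.99), Hsd17b11 (2.92), Pgf (2.52), Slc27a2 (2.47), Mup5 (2.47), Bok (2.33) and Wwox (2.30), and by less for Pmvk (2.30), Dnase1l2 (2.28), Fut8 (2.27), Isg20 (1.92), Scd1 (1.75), Sult1a1 (1.6001), Il18 (1.499), Crat (1.47), St3gal5 (1.22) and Serpina3n (1.17).

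It was the more negative for Slc39a8 (-2.53), Asgr1 (-2.32), Ddr1 (-2.17), Abcb1a (-1.85), Hspa1b (-1.76), Khdrbs3 (-1.66), Ppp2r1b (-1.64), Plagl1 (-1.55), Hmgn3 (-1.51), Trim24 (-1.49) and Tceal8 (-1.42), and by less for Prom1 (-1.38), Cpe (-1.31), Slc44a3 (-1.29), Fdft1 (-1.27), Cdo1 (-1.20), Cbr2 (-1.17), Acsl4 (-1.15), Dcxr (-1.10), Gusb (-0.97) and Acta2 (-0.72). Levels of the glands were not compared, only the effects within each.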

How the results depend on the processing

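Directions in KO females held better than calls. Of 67 named genes called, 50 kept the call under every Affymetrix alternative that used all pools and 46 without each pool in turn. In all of these and without KO pool 1 and WT pool 1 together 42 kept it. None changed sign in these Affymetrix settings, which read a gene from its brightest probe set or the mean of all. Single other probe sets of some of these genes had the opposite sign, such as -0.69 for Crat and 0.22 for Plagl1. Quantile normalization gave 352 calls against 216, and the cause was not tested. Leaving out KO pool 1 and WT pool 1 together, an alternative chosen after seeing the data, gave 123 calls with fewer samples, and 58 of the 67 genes kept theirs. KO pool 2, which was high in salivary markers too, stayed in. Leaving out 1 pool gave 103 to 176 calls in females, 75 to 204 on CodeLink (75 without KO pool 3, 108, 111 and 96 without WT pools 1, 2 and 3), 66 to 160 for females minus males (160 without KO male pool 2) and 87 to 416 for the difference between glands. On CodeLink the 6 female arrays alone gave 39 calls, with fewer samples. Of the gene lists 16 had a median above 0, but 10 with the pseudocount added before centring.

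Genes that were not called changed sign in some settings. With quantile normalization Nr3c1 had 0.048, and as the mean of its probe sets Smr2 had 0.066. With 1 pool left out, Nr3c1 ranged over -0.13 (without WT pool 3) and 0.049 (without WT pool 1), Sult1e1 over -0.075 (without WT pool 1) and 0.18 (without WT pool 3), Eif2s3y over -0.081 (without KO pool 2) and 0.32 (without KO pool 1), Ddc over -0.25 (without KO pool 3) and 0.43 (without KO pool 1), and Hsd3b7 over -0.013 (without KO pool 3) and 0.37 (without KO pool 1). Without KO pool 1 and WT pool 1 together Nr3c1 had 0.057 and Sult1e1 -0.028. On CodeLink B4galt1 (-0.018), Ddc (-0.10), Hsd3b7 (-0.19), Klk1b21 (0.033) and the called Lyz1 (-0.064) had the other sign. The cause was not tested.

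Pools with the same number in KO and WT females correlated in their deviations by 0.13, 0.03 and 0.12. Pools with unlike numbers correlated by -0.20 to 0.08. Whether pools with the same number share more than the number was not tested. With the replicate block 303 genes were called on Affymetrix, 281 on CodeLink and 127 for females minus males. Dim genes near the added constant have folds that are too small, and 3 pools a group limit all calls.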
